A study of Mus musculus with 27 samples.

Results

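The CXC chemokines described here are the 10 genes Cxcl1, Cxcl2, Cxcl3, Cxcl5, Cxcl9, Cxcl10, Cxcl12, Cxcl13, Cxcl14 and Cxcl16, taken by gene name from the 55852 entries of the table of injured muscle and the 55677 entries of the table with control muscle. RNA was sequenced from whole muscle of male mice in 27 libraries. Of these, 24 came from muscle injected with cardiotoxin (CTX, a toxin from cobra venom that destroys muscle fibres and is used to start regeneration) and collected on D1, D4, D7 or D14 (days after injection), with 3 libraries from WT mice and 3 from mice labelled Gsdme KO on each day. The remaining 3 were WT control muscle that had received no CTX. WT mice were C57BL/6J, and in the KO mice Gsdme was deleted in all cells and not in a chosen cell type. The titles say KO while the genotype field says knockdown, and KO means below the libraries labelled KO. The methods name the gastrocnemius and, as control, the non-injured muscle of the opposite side, so that the control muscle came from animals that carried an injury elsewhere. The deposited description names the thigh. The age of the mice, and whether control and D1 muscle came from the same animals, was not stated in the sources used here. The labels describe biological triplicates, and the p-values measure the spread between these libraries. Values are TPM, a transcript abundance per length and per library total, and can therefore be compared between genes.

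CXC chemokines are small secreted proteins with a single residue between their first pair of cysteines, and they direct leukocyte migration through G protein-coupled receptors. Cxcl1, Cxcl2, Cxcl3 and Cxcl5 carry the residues Glu-Leu-Arg (ELR+) before that motif and recruit neutrophils through Cxcr2. Cxcl9 and Cxcl10 are induced by interferon and attract T and NK cells through Cxcr3. Cxcl12 is a homeostatic ligand of Cxcr4, and Cxcl13 draws B cells through Cxcr5. Cxcl16 is made as a membrane-bound protein that is shed by Adam10 and Adam17 and binds Cxcr6, and Cxcl14 is a constitutively expressed member whose receptor is less settled. In injured muscle, neutrophils enter first and are followed by monocytes and macrophages.

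Of the 10 genes, 7 lie on mouse chromosome 5 (GRCm38, GENCODE M21). The ELR+ genes lie near each other on the plus strand, with Cxcl5 at 90759360-90761624, Cxcl3 at 90786103-90789600, Cxcl1 at 90891241-90893115 and Cxcl2 at 90903871-90905938. Cxcl9 at 92321347-92328079 and Cxcl10 at 92346638-92348889 lie beside each other on the minus strand of the same chromosome, and Cxcl13 lies at 95956951-95961068 on its plus strand. Cxcl12 is on chromosome 6 (117168535-117181367, plus strand), Cxcl16 on chromosome 11 (70453983-70459984, minus strand) and Cxcl14 on chromosome 13 (56288643-56296551, minus strand).

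RefSeq promoter sequence (GRCm38.p6) was matched for 8 of the 10 genes, and not for Cxcl5 and Cxcl16. The window shown runs from 250 to 31 bases before the RefSeq start, 220 bases in all, so that it lies upstream of the transcript. It is printed for 3 ELR+ genes and for Cxcl9 and Cxcl10, to set the neutrophil-recruiting beside the interferon-induced ligands. A set of 4 motifs was searched on both strands: GGAANTTCC (an NF-kappaB-like site), TTCNNTTTC (like an interferon-stimulated response element), TTCNNNGAA (a palindrome of cytokine-responsive promoters) and TGANTCA (like an AP-1 site). Matches are in capitals. The windows are chr5:90785851-90786070 (Cxcl3, plus strand), chr5:90890995-90891214 (Cxcl1, plus strand), chr5:90903649-90903868 (Cxcl2, plus strand), chr5:92328110-92328329 (Cxcl9, minus strand) and chr5:92348920-92349139 (Cxcl10, minus strand), each written in the direction of its gene.
Cxcl3: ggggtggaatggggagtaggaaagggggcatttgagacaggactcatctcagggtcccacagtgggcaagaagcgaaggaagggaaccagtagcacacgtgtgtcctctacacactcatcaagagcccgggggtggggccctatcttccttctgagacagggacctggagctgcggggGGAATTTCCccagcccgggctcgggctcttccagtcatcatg
Cxcl1: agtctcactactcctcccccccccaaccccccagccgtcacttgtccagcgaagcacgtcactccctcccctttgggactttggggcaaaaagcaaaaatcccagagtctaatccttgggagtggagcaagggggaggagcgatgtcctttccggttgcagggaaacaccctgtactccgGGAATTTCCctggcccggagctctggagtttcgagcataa
Cxcl2: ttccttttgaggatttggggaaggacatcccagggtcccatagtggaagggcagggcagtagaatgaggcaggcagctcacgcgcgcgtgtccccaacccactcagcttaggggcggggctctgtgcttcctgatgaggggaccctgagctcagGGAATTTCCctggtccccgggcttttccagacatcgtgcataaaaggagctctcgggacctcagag
Cxcl9: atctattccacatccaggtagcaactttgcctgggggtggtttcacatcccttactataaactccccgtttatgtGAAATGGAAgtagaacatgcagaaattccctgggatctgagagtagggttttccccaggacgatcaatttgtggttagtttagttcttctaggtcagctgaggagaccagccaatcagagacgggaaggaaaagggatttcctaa
Cxcl10: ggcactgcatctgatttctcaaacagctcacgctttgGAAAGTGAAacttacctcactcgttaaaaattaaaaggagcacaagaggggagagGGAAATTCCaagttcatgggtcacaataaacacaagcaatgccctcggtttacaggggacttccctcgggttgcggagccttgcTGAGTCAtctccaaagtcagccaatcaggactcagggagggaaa

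The NF-kappaB-like motif stood in 219 of 32851 RefSeq promoter windows of this length, or 0.667%, and in 4 of the 8 members with a window. The same 9 letters GGAATTTCC began 72 bases before the start in Cxcl3, 70 bases before it in Cxcl1 and 96 bases before it in Cxcl2, and GGAAATTCC stood at 158 in Cxcl10. The interferon-type motif was more common, at 6.29% of all windows, and was matched by GAAATGGAA at 175 in Cxcl9, GAAAGTGAA at 213 in Cxcl10 and GAAACAGAA at 172 in Cxcl14. The palindromic motif (6.27% of windows) was matched only in Cxcl14, by TTCTGAGAA at 191, and the AP-1-like motif (6.12%) only in Cxcl10, by TGAGTCA at 74. No match was found in the windows of Cxcl12 and Cxcl13. These matches describe letters and not occupied sites.

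The number of genes at 1 TPM or more ranged from 11785 to 14704 over all 27 libraries, and the 50 most abundant genes held 25.4% to 61.4% of the total. TPM keeps no read number, so the depth of each library was unknown. Gsdme itself was lower in all 3 KO than in all 3 WT libraries on D1 (1.28 to 2.17 against 2.76 to 4.85 TPM), D4 (1.0 to 1.64 against 2.63 to 3.02) and D7 (0.95 to 1.37 against 1.8 to 2.51), but overlapped on D14 (1.27 to 1.96 against 1.46 to 2.26), and was never near 0 in KO. A set of 3 libraries stood apart in marker sums, namely WT D1 replicate 3, WT D4 replicate 1 and KO D4 replicate 2. The summed TPM of 5 acinar pancreas genes was 27.1, 24 and 44.5 in these against at most 13.3 in the other 21 injured libraries. WT D4 replicate 1 had the lowest myofibre sum of the injured libraries (18840, against 30713 to 77507 in the other 21) and the highest monocyte and macrophage sum (4587). KO D4 replicate 2 had a monocyte and macrophage sum of 378, against 2726 and 3237 in the other KO D4 libraries. KO D7 replicate 2, outside this set, had a monocyte and macrophage sum of 400, against 1061 and 1032 in the other KO D7 libraries. Its myofibre sum (77507) was the highest of the injured libraries. KO D1 replicate 3, also outside this set, had the highest neutrophil sum of the injured libraries (3474, against 588 and 296 in the other KO D1 libraries). Results that rest on the 3 libraries that stand apart are given with and without them, an alternative chosen after seeing the data. In whole muscle, fewer cells of a type and less RNA per cell cannot be told apart.

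In uninjured muscle, the CXC chemokines were led by Cxcl14 and Cxcl12. Cxcl14 stood at 71.2, 102 and 95.3 TPM in the control libraries, Cxcl12 at 52.9, 45.9 and 49.6 TPM, and Cxcl16 at 2.59, 2.21 and 2.16 TPM. Their libraries did not overlap, whereas those of the next members did overlap with their neighbours in the order: Cxcl10 (0.56 to 1.01 TPM), Cxcl9 (0.4 to 0.62 TPM), Cxcl1 (0.21 to 0.6 TPM) and Cxcl13 (0.15 to 0.22 TPM). Cxcl2, Cxcl3 and Cxcl5 were listed at 0 in all 3 control libraries. In injured muscle all 10 members passed the filter of 1 TPM in at least 3 libraries, but in the table with control muscle only 7 did, since Cxcl2, Cxcl3 and Cxcl13 failed it there.

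**Figure D1:**
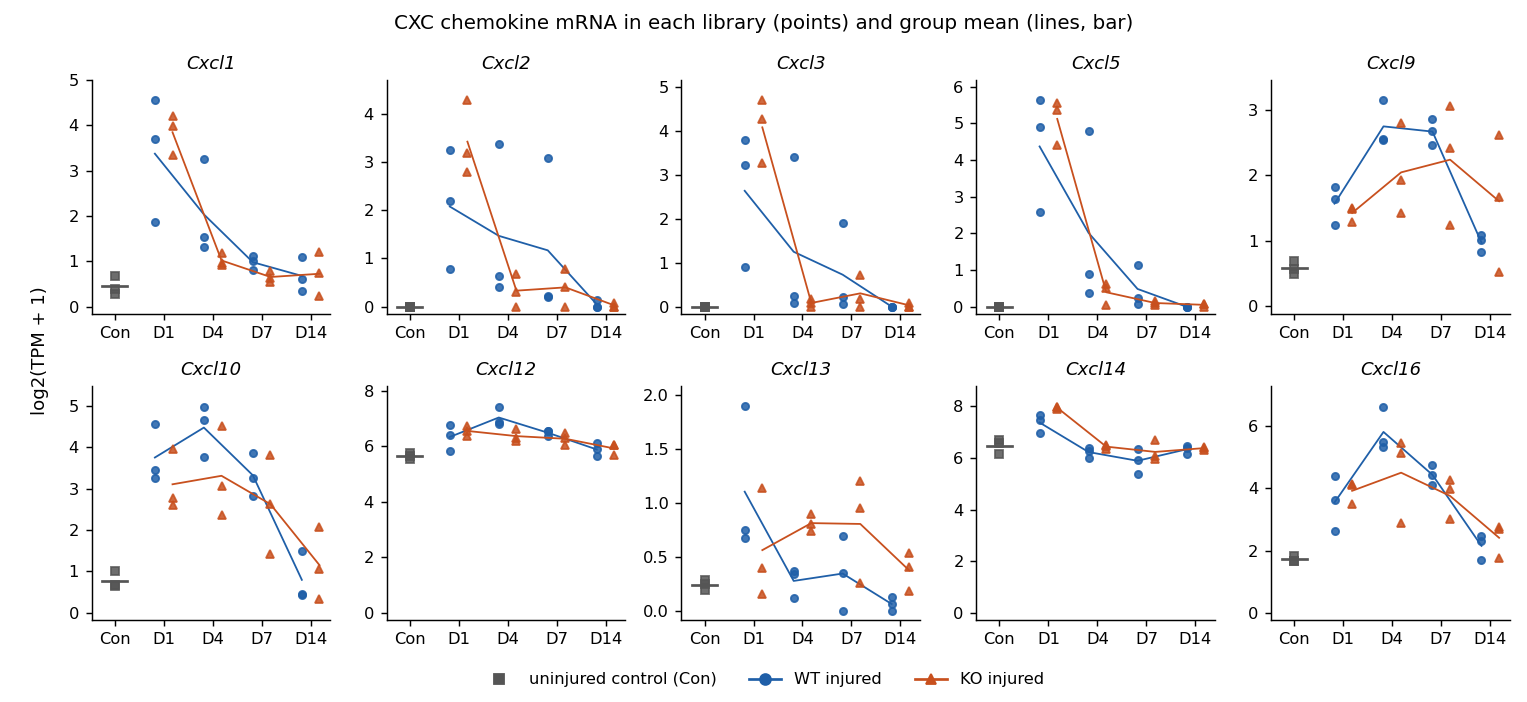
Level of each of the 10 CXC chemokines as log2(TPM + 1) (y axis of each panel, own scale) in control muscle (Con) and by day after CTX (x axis). Each point is 1 library, lines join the means of 3 WT (blue) or 3 KO (orange) libraries, and the bar is the mean of 3 control libraries from the separately quantified control table. The ELR+ members are high on D1, with WT D4 replicate 1 far above the other D4 libraries, Cxcl16 and Cxcl12 are highest in WT D4, and Cxcl14 is highest in KO D1.

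One day after CTX, Cxcl16 was higher in WT than in control muscle. Its log2 difference was 1.86 ± 0.392 (SE, n = 3 against 3; limma on log2(TPM + 1), adjusted p = 0.00529). Among all 13041 tested genes 55.4% were called higher, with a median difference of 0.66 on the log2 scale. Cxcl1, Cxcl5 and Cxcl9 reached 1 TPM only in the 3 D1 libraries, so that they entered the test through the group where they were high and had to be higher in it. Cxcl1 stood at 12.0, 22.5 and 2.67 TPM on D1 against at most 0.6 TPM in control muscle (log2 difference 2.93 ± 0.582), Cxcl9 at 1.36 to 2.54 TPM against at most 0.62 TPM (0.98 ± 0.214), and Cxcl5 at 28.8, 48.4 and 5.0 TPM against 0 in all 3 control libraries, for which no fold is given. With no filter on low values the adjusted p was 0.0276 for Cxcl1, 0.0164 for Cxcl5, 0.0255 for Cxcl9, 0.0125 for Cxcl10, 0.0282 for Cxcl16, 0.0451 for Cxcl3, 0.0503 for Cxcl2 and 0.111 for Cxcl13.

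Cxcl14 (0.90 ± 0.224; limma, adjusted p = 0.00961) and Cxcl12 (0.68 ± 0.237, adjusted p = 0.0347) also passed but were close to the shift of all genes, and with median-of-ratios scaling between libraries Cxcl14 stood at 0.12 (adjusted p = 0.66) and Cxcl12 turned to -0.10 (adjusted p = 0.664). The same scaling changed the calls over all genes from 7229 higher and 736 lower to 2770 higher and 2763 lower. The call for Cxcl12 changed in 8 of 14 alternatives, among them no filter (adjusted p = 0.0857) and the omission of any library other than WT D1 replicate 3 (0.47 to 0.73, adjusted p = 0.0718 to 0.108), and without that replicate it stood at 0.94 (adjusted p = 0.000475). The call for Cxcl9 was lost under quantile normalization (0.37, adjusted p = 0.103), while those for Cxcl1, Cxcl5, Cxcl10 and Cxcl16 held in every alternative.

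Among the ELR+ ligands, Cxcl5 was the most abundant on D1. It reached 40.4, 20.4 and 46.4 TPM in KO D1, against 28.8, 48.4 and 5.0 TPM in WT D1. Cxcl3 stood at 8.32, 12.9 and 0.88 TPM in WT D1 and at 18.4, 8.75 and 25.1 TPM in KO D1. Cxcl2 stood at 3.59, 8.59 and 0.71 TPM in WT D1 and at 8.17, 5.95 and 18.5 TPM in KO D1, and Cxcl1 at 14.96, 9.12 and 17.6 TPM in KO D1. WT D1 replicate 3 was the lowest D1 library for each of the 4 genes, and WT and KO overlapped on D1.

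On D4 the ELR+ ligands stood below every D1 library in all D4 libraries but 1. WT D4 replicate 1 held 26.6 TPM of Cxcl5, 8.57 TPM of Cxcl1, 9.37 TPM of Cxcl2 and 9.68 TPM of Cxcl3. The other WT D4 libraries held 0.29 and 0.85 TPM of Cxcl5 and 1.48 and 1.91 TPM of Cxcl1, with Cxcl2 and Cxcl3 at 0.06 to 0.55 TPM. In KO D4, Cxcl5 stood at 0.54, 0.04 and 0.42 TPM, Cxcl1 at 1.27, 0.88 and 0.95 TPM, Cxcl2 at 0.6, 0 and 0.24 TPM and Cxcl3 at 0.06, 0 and 0.12 TPM. No KO library of D4 overlapped a KO library of D1 for any of the 4 genes. On D7 WT replicate 2 stood out with 7.5 TPM of Cxcl2 and 2.73 TPM of Cxcl3 while the other D7 libraries were at most 0.72 TPM of either, and on D14 Cxcl3 and Cxcl5 were at 0 in all 3 WT libraries and at most 0.06 TPM in KO.

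In KO all 4 ELR+ ligands fell from D1 to D4. The log2 difference was -4.73 ± 0.804 for Cxcl5 (SE; limma, adjusted p = 0.000847), -4.01 ± 0.734 for Cxcl3 (adjusted p = 0.00144), -3.10 ± 0.75 for Cxcl2 (adjusted p = 0.009) and -2.83 ± 0.514 for Cxcl1 (adjusted p = 0.00138). With Cxcl14 this made 5 of the 10 members, beside 12.2% of the 15718 tested genes called lower. The members' median difference was -0.85, against -0.15 over all genes. The call for Cxcl2 was lost without KO D1 replicate 3 (adjusted p = 0.0598) and with library quality weights (adjusted p = 0.11). In WT, Cxcl5 was the ELR+ ligand that passed the test, where it fell by 2.36 ± 0.804 (adjusted p = 0.045), and this call was lost in 21 of 33 alternatives, with an adjusted p of up to 0.207. Most of these left out a library outside the comparison, where the difference stayed at -2.36 and the adjusted p (limma) was 0.0506 to 0.0543. Cxcl1 (-1.34, adjusted p = 0.0738), Cxcl3 (-1.39, adjusted p = 0.201) and Cxcl2 (-0.61, adjusted p = 0.62) did not pass. Without WT D4 replicate 1, Cxcl5 (-3.74, adjusted p = 0.000594), Cxcl3 (-2.47, adjusted p = 0.0117) and Cxcl1 (-1.95, adjusted p = 0.0123) passed in WT. Without WT D1 replicate 3, Cxcl5 (-3.25, adjusted p = 0.0113), Cxcl3 (-2.26, adjusted p = 0.0421) and Cxcl1 (-2.09, adjusted p = 0.00455) passed as well, and without WT D4 replicate 3 Cxcl5 stood at -1.53 (adjusted p = 0.207). Whether the D1 to D4 step alone differed between genotypes was not tested. The F test of the genotype difference between days takes D4, D7 and D14 against D1 together, and no member passed it (adjusted p from 0.527 to 0.624).

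The neutrophil markers were also highest on D1. The 8 neutrophil markers summed to 2.14 to 4.96 TPM in control muscle (Ly6g at 0 in all 3 libraries), 58.5 to 621 TPM in WT D1 and 296 to 3474 TPM in KO D1. On D4 they summed to 244 TPM in WT replicate 1, to 33.1 and 18.1 TPM in the other WT libraries (Ly6g at 0 in all 3) and to 8.22 to 44 TPM in KO (Ly6g at 0). From D1 to D4 the calls were 5 of 6 tested markers lower in KO and 2 of 6 lower in WT, beside 12.2% and 5.27% of all tested genes. The summed TPM of the 4 ELR+ ligands was likewise lowest on D1 in WT replicate 3 and highest on D4 in WT replicate 1, at 9.26 and 54.2 TPM, against 3.27 and 2.38 TPM in the other WT D4 libraries. On D7 the order differed: KO D7 replicate 1 had a neutrophil sum of 60.4 TPM, above WT D1 replicate 3, with an ELR+ sum of 0.67 TPM, the lowest of the D7 libraries. The part of neutrophil number in the ELR+ values was not tested.

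**Figure D2:**
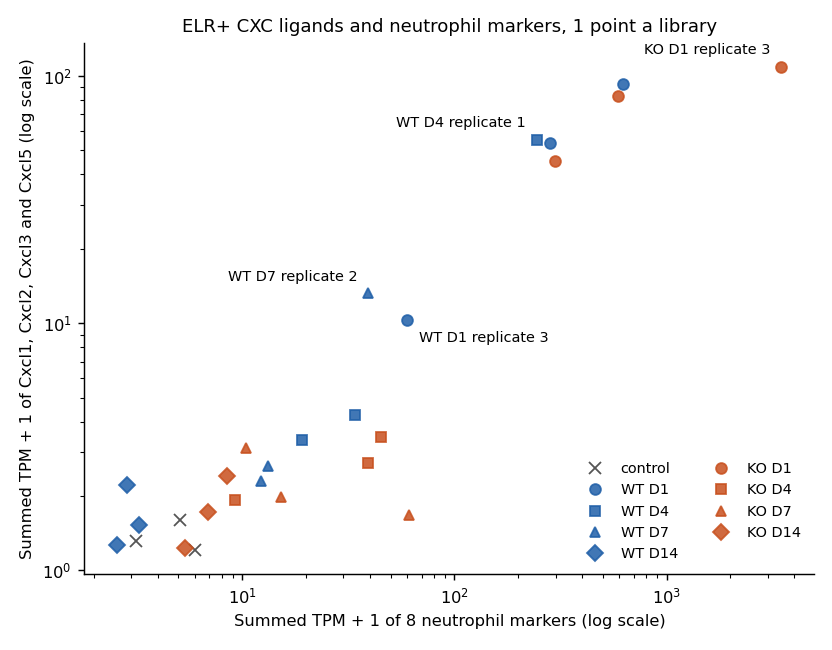
Summed TPM + 1 of Cxcl1, Cxcl2, Cxcl3 and Cxcl5 (y axis, log scale) against summed TPM + 1 of 8 neutrophil markers (x axis, log scale), 1 point for each library, with colour for genotype, shape for day and crosses for control. The D1 libraries other than WT replicate 3 (9.26 and 58.5 TPM) lie at the upper right together with WT D4 replicate 1 (54.2 and 244 TPM), and the D14 and control libraries lie at the lower left.

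Cxcl9 and Cxcl10, the interferon-induced ligands of Cxcr3, had their highest WT mean on D4, although neither passed the test from D1 to D4. Cxcl10 stood at 9.91, 22.6 and 8.47 TPM in WT D1, at 30.6, 12.7 and 24.3 TPM in WT D4, at 13.6, 8.59 and 6.11 TPM in WT D7 and at 0.38, 1.83 and 0.34 TPM in WT D14. In KO the values were 14.4, 5.04 and 5.82 TPM on D1, 21.8, 4.12 and 7.33 TPM on D4, 5.17, 1.68 and 13.1 TPM on D7 and 0.25, 3.21 and 1.08 TPM on D14. WT and KO libraries overlapped on every day. Cxcl9 stood at 2.11, 2.54 and 1.36 TPM in WT D1, at 7.85, 4.89 and 4.81 TPM in WT D4, at 6.26, 5.38 and 4.54 TPM in WT D7 and at 1.01, 1.12 and 0.77 TPM in WT D14. In KO it stood at 1.83, 1.79 and 1.45 TPM on D1, 5.94, 1.67 and 2.79 TPM on D4, 4.35, 1.37 and 7.29 TPM on D7 and 0.44, 5.13 and 2.18 TPM on D14, where replicates 2 and 3 were above every WT D14 library.

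Between D7 and D14, 4 members fell in WT, beside 30.9% of all tested genes. Cxcl10 fell by 2.52 ± 0.625 on the log2 scale (SE; limma, adjusted p = 0.0107) and Cxcl9 fell by 1.70 ± 0.445 (adjusted p = 0.0131), together with Cxcl16 and Cxcl12. The members' median difference was -0.67 and that of all genes -0.45, and with median-of-ratios scaling the calls over all genes went from 145 higher and 4855 lower to 802 higher and 1348 lower. None of the 4 calls was held without WT D7 replicate 1 or without WT D14 replicate 3, where adjusted p was 0.0575 to 0.164, while the differences stayed of like size (Cxcl10 -2.25 and -2.34, Cxcl9 -1.60 and -1.62, Cxcl16 -2.12 and -2.05, Cxcl12 -0.58 and -0.49). In KO the same step gave Cxcl10 -1.47 ± 0.625 (adjusted p = 0.214) and Cxcl9 -0.63 ± 0.445 (adjusted p = 0.431), and no member passed, where 0.56% of all genes did (13 higher and 75 lower, or 128 higher and 309 lower with median-of-ratios scaling). At an unadjusted p under 0.05, 2 of the 10 members would have been counted in that KO step, beside 3035 of all 15718 tested genes. The earlier WT step from D1 to D4 left Cxcl9 at 1.18 ± 0.445 (adjusted p = 0.0685) and Cxcl10 at 0.72 (adjusted p = 0.46), and the Cxcl10 value turned to -0.14 with library quality weights. T and NK cell markers (8 genes) summed to 11.2 to 31.7 TPM in WT D4 and to 1.66 to 3.94 TPM in WT D14, and the interferon-response genes Irf7 and Gbp2 fell in the same WT step. Their part in the Cxcl9 and Cxcl10 values was not tested.

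Cxcl16, which attracts Cxcr6 cells and also serves as a scavenger receptor, had its peak on D4. It stood at 11.3, 19.8 and 5.22 TPM in WT D1, at 97.6, 43.5 and 39.2 TPM in WT D4, at 26.0, 20.7 and 16.2 TPM in WT D7 and at 3.91, 4.56 and 2.22 TPM in WT D14. In KO it stood at 16.7, 10.2 and 16.4 TPM on D1, 42.9, 6.47 and 34.4 TPM on D4, 14.7, 7.12 and 18.3 TPM on D7 and 2.41, 5.52 and 5.79 TPM on D14. All WT D4 libraries lay above all WT D1 libraries, whereas KO D4 replicate 2 lay below every KO D1 library. From D1 to D4 Cxcl16 rose in WT by 2.26 ± 0.557 (SE; limma, adjusted p = 0.00719) and stood at 0.58 ± 0.557 in KO (adjusted p = 0.469). Without the 3 libraries that stand apart it passed in both, at 1.40 in WT (adjusted p = 0.026) and at 1.38 in KO (adjusted p = 0.0157). Without WT D1 replicate 3 alone the WT value was 1.81 (adjusted p = 0.0509). It fell again from D7 to D14 in WT by 2.28 ± 0.557 (adjusted p = 0.0104), with -1.34 ± 0.557 in KO (adjusted p = 0.206, and adjusted p = 0.0207 without the 3 libraries).

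In WT from D1 to D4, the calls were Cxcl16 and Cxcl12 higher, beside 14.6% of all tested genes, and Cxcl5 and Cxcl14 lower, beside 5.27%. With median-of-ratios scaling the calls over all genes went from 2292 higher and 828 lower to 1822 higher and 2094 lower. The members' median was -0.71 against 0.17 over all genes. From D4 to D7 no member passed in either genotype, where 12.3% of all genes passed in WT (478 higher and 1463 lower, or 928 higher and 918 lower with median-of-ratios scaling) and 0% in KO, with 1555 genes in KO at an unadjusted p under 0.05. The lowest adjusted p in WT was that of Cxcl12 (0.0893), followed by Cxcl16 (-1.38 ± 0.557, adjusted p = 0.0973). At an unadjusted p under 0.05 the members counted 2 in WT, beside 5263 of all 15718 tested genes, and 0 in KO. The 8 monocyte and macrophage markers summed to 2306 to 4587 TPM in WT D4, 378 to 3237 TPM in KO D4 and 146 to 510 TPM in WT D14, and their part in the Cxcl16 values was not tested.

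Cxcl12, which retains Cxcr4-bearing cells in tissue, was abundant in every library and was highest in WT D4. It stood at 84.9, 107 and 55.8 TPM in WT D1, at 172, 111 and 117 TPM in WT D4, at 91.9, 81.9 and 93.5 TPM in WT D7 and at 67.9, 58.7 and 49.4 TPM in WT D14. In KO it stood at 105, 82.2 and 93.3 TPM on D1, 97.9, 77.0 and 72.0 TPM on D4, 88.4, 65.0 and 77.3 TPM on D7 and 50.4, 65 and 64.7 TPM on D14. All 3 KO D4 libraries lay below all 3 WT D4 libraries. In WT Cxcl12 rose from D1 to D4 by 0.70 ± 0.214 on the log2 scale (SE; limma, adjusted p = 0.026), a call that was lost without WT D1 replicate 3 (0.45, adjusted p = 0.176), without WT D4 replicate 1 (0.50, adjusted p = 0.139) and with median-of-ratios scaling (0.42, adjusted p = 0.0541). It fell from D7 to D14 by 0.60 ± 0.214 (adjusted p = 0.0398), and with median-of-ratios scaling the difference was -0.02 (adjusted p = 0.951). In KO the steps were -0.19 from D1 to D4 (adjusted p = 0.55) and -0.35 ± 0.214 from D7 to D14 (adjusted p = 0.367). The 6 markers of fibro-adipogenic progenitors, stromal cells of muscle, summed to 1359 to 2339 TPM in WT D1, 6677 to 7427 TPM in WT D4 and 1862 to 7554 TPM in KO D4, and the 5 endothelial markers to 124 to 212 TPM, 160 to 209 TPM and 120 to 229 TPM in the same groups. From D1 to D4 in WT, 3 of 6 progenitor markers were called higher (Col1a1, Col3a1 and Dpt), beside 14.6% of all tested genes, and the rest of that list was not called. The part of these cells in the Cxcl12 values was not tested.

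Cxcl14 was the member with the highest level on D1 and lost most of it by D4 in both genotypes. It stood at 178, 203 and 125 TPM in WT D1 and at 248, 237 and 255 TPM in KO D1, and all KO libraries lay above all WT libraries. On D4 it stood at 76.6, 83.7 and 64.1 TPM in WT and at 80.1, 90.1 and 88.6 TPM in KO. It fell from D1 to D4 by 1.14 ± 0.218 in WT (SE; limma, adjusted p = 0.00127) and by 1.51 ± 0.218 in KO (adjusted p = 0.000255), and both calls held in each of 33 alternatives, including those that left out a library outside the comparison. Later it stood at 41.0 to 81.8 TPM in WT D7, 61.0 to 103 TPM in KO D7, 71.2 to 87.2 TPM in WT D14 and 79.1 to 86.3 TPM in KO D14.

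Cxcl13 was low throughout, with at most 2.72 TPM in any library. It stood at 0.6, 0.68 and 2.72 TPM in WT D1 and at 1.2, 0.32 and 0.12 TPM in KO D1. On D4 it stood at 0.3, 0.27 and 0.09 TPM in WT and at 0.67, 0.87 and 0.75 TPM in KO, and on D14 at 0.1, 0.05 and 0 TPM in WT and at 0.14, 0.45 and 0.33 TPM in KO. On D4 and on D14 all KO libraries lay above all WT libraries, and on D1 and D7 they overlapped. Markers of B cells (6 genes), which Cxcl13 attracts, summed to 2.18 to 6.75 TPM in WT D4 and to 1.4 to 3.47 TPM in KO D4, and Cr2 was at 0 in KO D4.

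**Figure D3:**
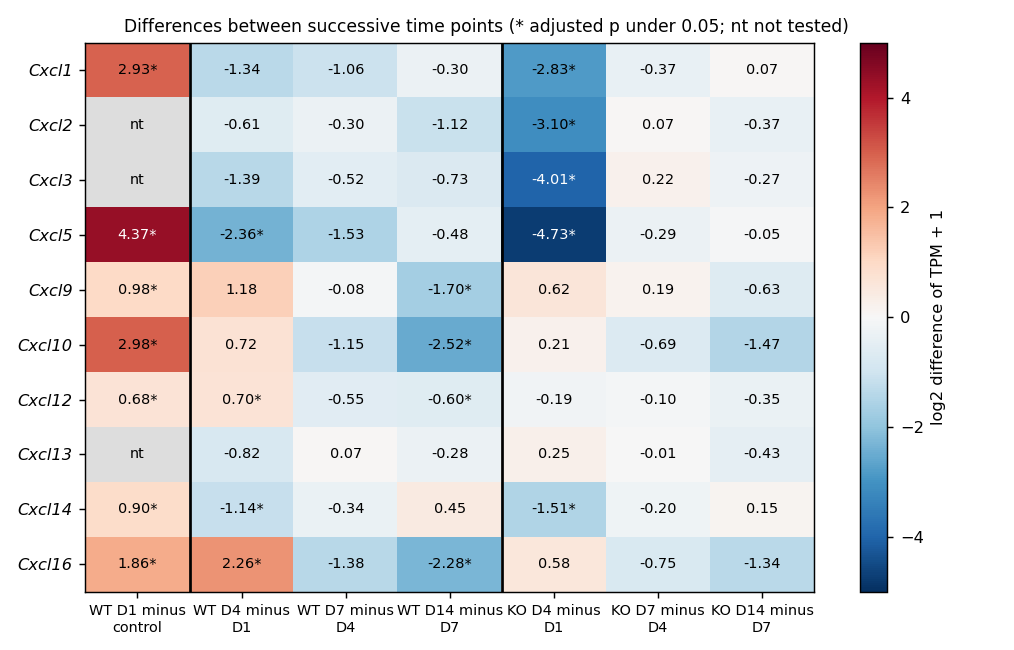
Log2 difference of TPM + 1 between successive time points for each member (colour and printed value), with an asterisk where the adjusted p was under 0.05 and nt where the gene was not tested. The Cxcl5 value against control depends on the pseudocount because its control libraries are listed at 0, and the ELR+ members fall in KO from D1 to D4 with values from -2.83 to -4.73.

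Between genotypes no member passed the test on any day, in the average of days or in the test between days. Over all 15718 genes the calls were 0.00636% on D1 (1 gene), 0% on D4, 0% on D7, 0% on D14, 0.00636% for the average (1 gene) and 0% between days. Without adjustment, p was under 0.05 for 845 genes on D1, 3568 on D4, 481 on D7, 324 on D14, 556 for the average and 1203 between days (limma), and among the members Cxcl14 on D1 and in the average, Cxcl12 and Cxcl16 on D4, Cxcl12 between days, and 0 on D7 and D14. In an exact two-sided permutation test of 3 against 3 libraries the smallest p is 0.1, so that no single day could reach 0.05 by that test.

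On D4 the members' median difference was -1.08, against -0.28 over all genes. It was -0.32 without WT D4 replicate 1 (all genes -0.17), -0.66 without KO D4 replicate 2 and -0.08 without the 3 libraries that stand apart (all genes -0.01). These include the WT D4 library with the highest summed TPM of the members (439) and the KO D4 library with the lowest (181). Leaving both out therefore brings the D4 groups closer partly by the choice of libraries. Cxcl12 stood at -0.67 ± 0.214 (SE; limma, adjusted p = 0.212), Cxcl16 at -1.31 ± 0.557 (adjusted p = 0.212), Cxcl5 at -1.62 ± 0.804 (adjusted p = 0.225), Cxcl1 at -1.02 ± 0.514 (adjusted p = 0.228), Cxcl10 at -1.16 ± 0.625 (adjusted p = 0.242, turning to 0.43 with library quality weights) and Cxcl13 at 0.53 ± 0.304 (adjusted p = 0.259). Without WT D4 replicate 1, Cxcl5 stood at -0.23, Cxcl1 at -0.41, Cxcl10 at -0.91, Cxcl16 at -0.90, Cxcl12 at -0.47 and Cxcl13 at 0.58. Without the 3 libraries Cxcl5 stood at -0.06, Cxcl1 at -0.35, Cxcl10 at -0.43, Cxcl16 at -0.10, Cxcl12 at -0.43 and Cxcl13 at 0.54. Every KO D4 library lay below every WT D4 library for Cxcl1 and Cxcl12, as for 11.2% of all genes, and above for Cxcl13, as for 2.77% of all genes.

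On D1 the members' median difference was 0.42, against 0.09 over all genes, and without WT D1 replicate 3 it turned to -0.11, against 0.01. Cxcl14 stood at 0.57 ± 0.218 (limma, adjusted p = 0.873) and at 0.38 without WT D1 replicate 3, and it was the only member whose KO libraries all lay above WT, as for 3.33% of all genes, with 0 members on the other side, where 3.38% of all genes stood. On D7 all KO libraries lay below WT for Cxcl1, as for 14.6% of all genes, and no member lay above, as 1.85% of all genes did. On D14 all KO libraries lay above WT for Cxcl13, as for 7.37% of all genes, and no member lay below, as 1.04% of all genes did. The members' median differences were -0.41 on D7 (all genes -0.19, and -0.08 without KO D7 replicate 2) and 0.05 on D14 (all genes 0.08). Averaged over the days, Cxcl14 stood at 0.29 ± 0.109 (adjusted p = 0.861; exact permutation of genotype within days, two-sided, 160000 assignments, p = 0.0127, the lowest of the 10 members) and Cxcl10 was at -0.54 ± 0.313 (adjusted p = 0.861; exact permutation p = 0.124), which turned to 0.24 with library quality weights.

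**Figure D4:**
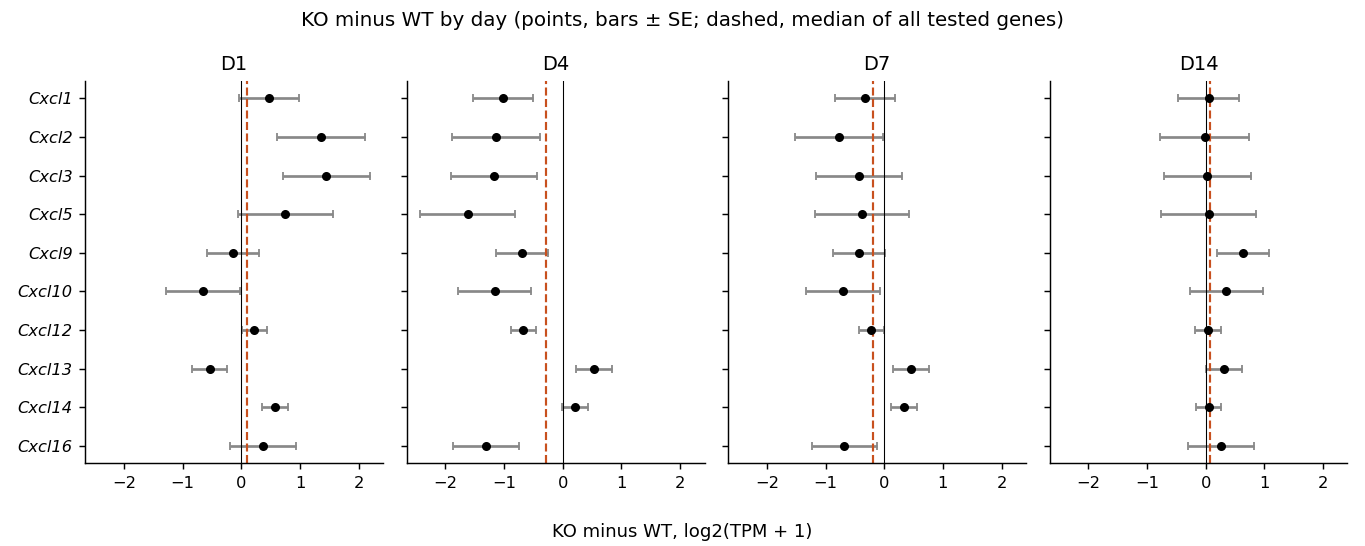
KO minus WT difference of log2(TPM + 1) (x axis) for each member (y axis) on D1, D4, D7 and D14 (panels), with points and bars giving the estimate and its SE and the dashed line the median of all tested genes. On D4 most members lie left of that line (members' median -1.08), and on D14 they lie around it.

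Of 8 listed receptors, 4 could be tested against control muscle and 6 among the injured libraries. Cxcr2, the receptor of the ELR+ ligands and itself one of the neutrophil markers, stood at 0.01, 0.1 and 0.04 TPM in control muscle, 7.72, 16.7 and 1.73 TPM in WT D1 and 13.9, 7.36 and 64.3 TPM in KO D1. Like Cxcl1, it entered the test against control only through D1 (2.84 ± 0.574, SE), so that its direction there was set by the filter. From D1 to D4 it fell in both genotypes, with a log2 difference of -1.98 ± 0.64 in WT (limma, adjusted p = 0.0341, lost in 5 of 33 alternatives) and -4.10 ± 0.64 in KO (adjusted p = 0.000462), where it stood at 0.12 to 0.2 TPM on D4. In WT D4 it was 4.06 TPM in replicate 1 and 0.2 and 0.12 TPM in the others, the same library that held the ELR+ ligands. Cxcr4, the receptor of Cxcl12, stood at 2.4 to 4.63 TPM in control muscle, 7.42 to 60.7 TPM in WT D1, 38.4 to 91.3 TPM in WT D4 and 4.65 to 9.51 TPM in WT D14, a rise with injury of 2.48 ± 0.626 (adjusted p = 0.0103) and a fall from D7 to D14 of -1.75 ± 0.625 (adjusted p = 0.0409) that was lost in 8 of 33 alternatives. Cxcr3, the receptor of Cxcl9 and Cxcl10, stood at 5.01, 1.78 and 2.05 TPM in WT D4 and fell from D7 to D14 in WT (adjusted p = 0.0449). Cxcr6, the receptor of Cxcl16, stood at 0.26, 0.09 and 0.23 TPM in KO D4 against 1.02, 0.84 and 0.38 TPM in WT D4. These did not overlap, with KO lower as for 11.2% of all genes, but no test was passed. In KO, Cxcr6 fell from D1 to D4 (limma, adjusted p = 0.013), beside 12.2% of all genes. Cxcr1 and Cxcr5 were not tested, and Ackr1 and Ackr3, which take up chemokines without signalling as the other receptors do, were called in no step.

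**Figure D5:**
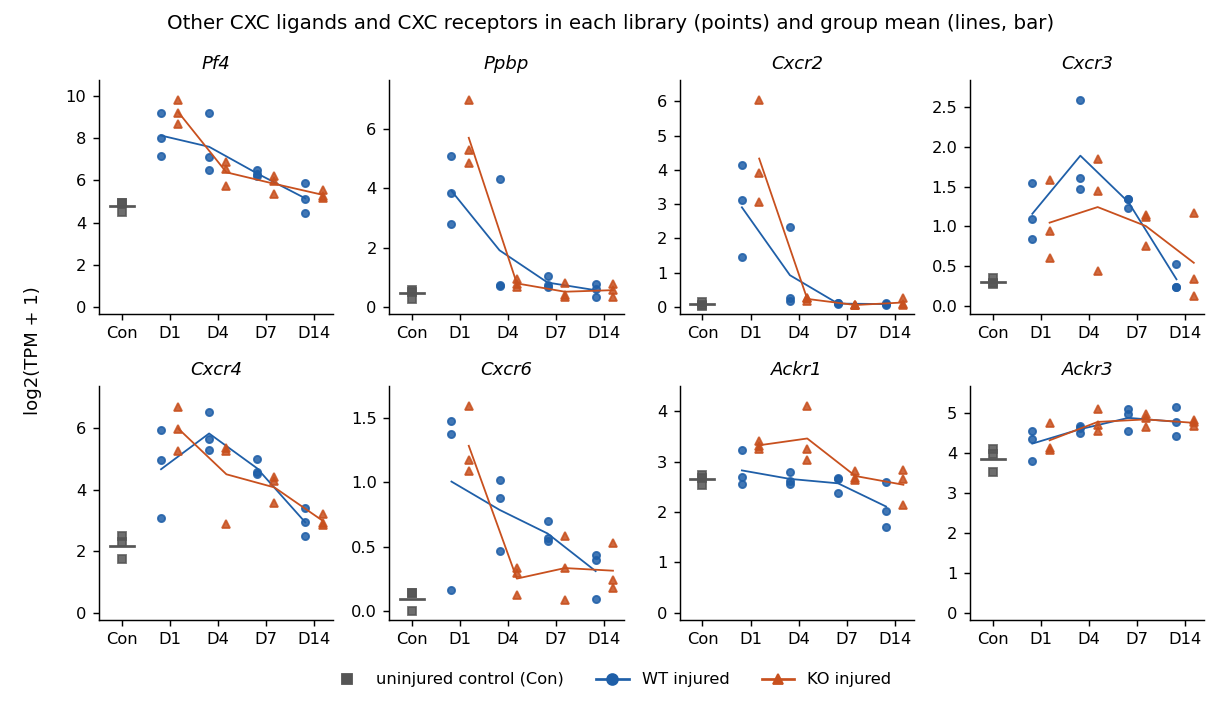
Level of Pf4, Ppbp and 6 receptors as log2(TPM + 1) (y axis of each panel, own scale) in control muscle (Con) and by day after CTX (x axis). Each point is 1 library, lines join the means of 3 WT (blue) or 3 KO (orange) libraries, and the bar is the mean of 3 control libraries from the separately quantified control table, and Cxcr2 is near 0 outside D1 except in WT D4 replicate 1 (4.06 TPM).

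The other CXC ligands, their inducers and the proteases that act on them were counted from lists. Over all tested genes, 55.4% were called higher with injury (7229 genes, or 2770 with median-of-ratios scaling). In KO from D1 to D4 12.2% were called lower (1921 genes) and 1128 genes higher. In WT from D7 to D14 30.9% were called lower. Pf4 and Ppbp, which are platelet ligands, were higher in every WT D1 than in every control library and both fell in KO from D1 to D4. Against control, Ppbp entered the test through D1 alone, so that its direction there was set by the filter. Ppbp stood at 0.2 to 0.49 TPM in control muscle, 38.2, 27.8 and 124 TPM in KO D1 and 18.9 TPM in WT D4 replicate 1 against 0.65 and 0.61 TPM in the other WT D4 libraries. Cxcl11 was at most 0.3 TPM, Cxcl17 at most 0.1 TPM and Cxcl15 at 0 in every library. Of the inducing cytokines, Il1b and Tnf, which act through NF-kappaB, stood at 3.22 to 23 and 1.18 to 6.04 TPM in WT D1 against at most 0.48 and 0.24 TPM in control muscle, and entered the test against control through D1 alone. Il1b, Tnf and Il6 fell in KO from D1 to D4 (3 of 3 tested). Il1b stood at 28.2, 6.35 and 5.98 TPM in WT D4 and 2.95, 0.31 and 1.35 TPM in KO D4, a separation of the libraries without a passed test. The same separation, with KO lower, held for 11.2% of all genes. Of the 5 NF-kappaB feedback and mRNA decay genes, Bcl3, Zfp36, Tnfaip3 and Nfkbia rose with injury while Nfkbiz entered that test through D1 alone, and 4 of 5 fell in KO from D1 to D4 (Nfkbia, Tnfaip3, Zfp36, Bcl3). The interferon-response genes Irf1, Irf7 and Gbp2 also rose with injury, and Irf7 stood at 5.23 to 6.67 TPM in control muscle and 44.6 to 158 TPM in WT D1. Of the 4 proteases, Adam10, Adam17 and Mmp9 rose with injury, and in KO from D1 to D4 Mmp9 fell while Dpp4, which trims several of these ligands, rose. In WT from D7 to D14 Adam10 and Adam17 fell, as Cxcl16 did. The same lists had no called gene in WT from D1 to D4, a step that includes WT D1 replicate 3 and WT D4 replicate 1. Whether that step alone differed between genotypes was not tested. None of these lists had a called gene between genotypes on any day.

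Over the 24 injured libraries the genes most alike in profile to each member were found by Pearson's r of log2(TPM + 1), given as a description because the libraries share day, genotype and scaling. The 3 nearest genes to Cxcl5 were Arg1 (r = 0.99, and 0.96 after subtracting group means), Rhov (0.98 and 0.94) and Ifitm1 (0.98 and 0.97). Cxcl3 was nearest to Stfa2l1, Clec4e and Hdc (each r = 0.97), and Cxcl2 to Acod1 (0.97 and 0.95), Cxcl3 (0.96 and 0.93) and Hdc (0.95 and 0.91). Cxcl1 had Cxcl5 as its nearest gene (0.97 and 0.86). Pairs of ELR+ ligands ran from 0.86 (Cxcl1 and Cxcl2, 0.67 after subtracting group means) to 0.97. Outside the class, Cxcl12 and Cxcl16 reached 0.89 and 0.71, and Cxcl10 and Cxcl16 reached 0.88 and 0.76. Cxcl1 and Cxcl12 stood at 0.54 and 0.86. Cxcl10 was nearest to Pomt2 (0.96 and 0.88), Stat2 (0.95 and 0.9) and Uba7 (0.95 and 0.89). Cxcl16 was nearest to Armcx2, Srgap2 and Zfp319 (each r = 0.98, and 0.94 to 0.98 within groups), and Cxcl12 to Bahcc1 (0.96 and 0.9), Xylt2 (0.95 and 0.85) and Zbed3 (0.95 and 0.89). Cxcl9 was nearest to Src (0.9 and 0.78), Serpinb9 (0.9 and 0.79) and Utrn (0.89 and 0.83). For Cxcl14 the likeness was mostly between groups, with Depdc7 at 0.91 and 0.42, Cd177 at 0.9 and 0.32 and Mt4 at 0.9 and 0.21. Cxcl13 had no close neighbour, with Ppp1r3f the nearest at 0.72 and 0.73.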

How the data were processed

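RNA from whole mouse muscle was measured in 27 libraries. The authors deposited TPM per gene in 2 tables, one for the 24 injured libraries and one for the controls with WT D1. The WT D1 libraries stand in both (r of 0.997 across genes), and members differed between tables by at most 1.34 TPM, so each comparison was kept within 1 table. The submitters' processing notes name mm10, and the aligner and counting tool were not given in the sources used here. The methods describe 2 sequencing batches (injured and opposite muscle at 24 h, and WT and KO), and the labels give none, so that batch and injury or genotype cannot be told apart where they coincide. TPM keeps no depth, so no interval or detection limit was computed.

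Genes at 1 TPM or more in at least 3 libraries were tested with limma 3.58.1 (R 4.3.3) on log2(TPM + 1), with a variance trend and Benjamini-Hochberg adjustment over all tested genes (threshold 0.05), and values were tabulated with pandas 2.3.3 (Python 3.11.15). Fold changes on this scale understate those of low genes. The scripts were tested on simulated data. Members, lists and markers were chosen with earlier results of these data known. All members were named, and genes of the lists by the largest absolute difference. Alternatives were pseudocount 0.1, other filters and scalings, library quality weights, no trend, single-day fits, a replicate block and each library left out. Leaving out a library of a group outside a comparison keeps its log2 difference and changes only its p-values. Reads shared between near-identical genes could not be resolved. A gene of the interferon-response list is not reported here.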

Additional observations from a re-analysis of the deposited data

How the results depend on the processing

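Of 1350 alternative values of 46 log2 differences given above, 1258 kept direction and side of the threshold, 67 were no longer past it, 21 came past it and 4 reversed. Many of these values leave out a library outside the comparison and so repeat the same difference, so that the tally overstates stability. The reversed ones were Cxcl12 against control with median-of-ratios scaling (-0.10) and, with library quality weights, Cxcl10 in the KO minus WT average (0.24), in KO minus WT on D4 (0.43) and in WT from D1 to D4 (-0.14). The estimation of these weights stopped before it converged. The number of members called was 4 against control (7 as reported, of which Cxcl1, Cxcl5, Cxcl9 and Cxcl10 passed the filter only through D1) under quantile normalization. With the weights it was 6 from D4 to D7 in WT, 5 from D7 to D14 in KO and 1 between genotypes on D7. Without the 3 libraries that stand apart it was 1 from D4 to D7 and 1 from D7 to D14 in KO, Cxcl16 each time (adjusted p = 0.0114 and 0.0207). With each library left out in turn it ranged from 0 to 1 from D4 to D7 in WT, with 1 without KO D4 replicate 2, and from 0 to 4 from D7 to D14 in WT. The cause was not tested.

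Over all genes, calls against control ranged from 5226 to 10845 over the alternatives (7965 as reported). From D4 to D7 in WT they ranged from 1514 to 10595 (1941; 210 without WT D4 replicate 1), and from D7 to D14 in WT from 2106 to 9503 (5000; 286 without WT D14 replicate 3). From D1 to D4 they ranged from 2343 to 3916 in WT (3120; 2074 without WT D1 replicate 3) and from 2094 to 4204 in KO (3049; 1096 without KO D1 replicate 3). Calls in KO reached 3115 from D4 to D7 without the 3 libraries (0) and 7861 from D7 to D14 with the weights (88). Between genotypes they reached 14 on D1, 24 on D4 (without KO D4 replicate 1), 533 on D7, 51 on D14, 11 for the average and 19 between days. Replicate numbers gave no sign of pairing: same-numbered WT and KO libraries had correlations of their deviations from -0.40 to 0.11 on D1, -0.30 to 0.39 on D4, -0.06 to 0.15 on D7 and -0.08 to 0.06 on D14. Libraries with different numbers reached 0.44 on D4 (WT replicate 3 and KO replicate 2), so that this check cannot exclude pairing. With a replicate block the members called were 7 against control, 4 from D1 to D4 and 4 from D7 to D14 in WT, 5 from D1 to D4 in KO and 0 elsewhere, the same counts as without it. TPM gives no depth, so the counting error of low values such as those of Cxcl13 could not be computed.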
